A study of Mus musculus with 5 samples.

Results

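The main cluster of replication-dependent histone genes (Hist1) was examined as a window on mouse chromosome 13 (mm9) from 21750000 to 23900000. All peaks that overlapped it were taken from the 5 peak lists of a chromatin immunoprecipitation and sequencing (ChIP-seq) study of mouse gliomas. The window held 318 of the 258727 peaks in the 5 lists, and the rest of chromosome 13 held 11614. The rule for members uses their position and no measured value.

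The tumours were brain gliomas induced with a PDGFB virus and collected 25 days after its injection, in mice of mixed C57Bl/6;129Sv;CD-1 background. Tumours of both genotypes carried floxed alleles of the tumour suppressor gene P53. The genotypes differed in Olig2, which was floxed in Olig2cKO tumours and not in control tumours. The labels name no driver or cell type of the recombination, and they do not say whether animals were pooled. There was 1 library per group, which gave 5: Olig2 of control tumours, and from either genotype the histone H3 marks H3K27ac (acetylation of lysine 27) and H3K4me3 (trimethylation of lysine 4). Loss of Olig2 in the Olig2cKO tumours was not checked here, since Olig2 was analysed in control tumours alone.

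Replication-dependent histone genes supply the core histones H2A, H2B, H3 and H4 and the linker histone H1 that package newly made DNA, and they are switched on together in S phase. They are short genes without introns, and their transcripts end in a stem-loop instead of a poly(A) tail. They lie in dense clusters, which gather in the nucleus with the coactivator NPAT in the histone locus body. H3K4me3 marks mainly active promoters, H3K27ac marks active promoters and enhancers, and Olig2 is a transcription factor of the oligodendrocyte lineage. Genes of this kind are among those that encode histone H3, the protein that carries the mapped marks.

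No annotation of mm9 was used here, so no peak was assigned to a gene and the name of the window could not be checked against gene positions. The order of genes in RefSeq on GRCm38.p6, a later build, was used without its coordinates. There the cluster held 55 histone genes, 54 of them protein-coding, in a stretch of 255 genes: 6 of H1, 14 of H2A, 15 of H2B, 9 of H3 and 11 of H4. The longest run of other genes, 147, lay between H2bc11 and H4c8, with 24 histone genes before it and 31 after it. It held 75 Vmn1r genes and pseudogenes, 36 of them protein-coding, and 46 transfer RNA (tRNA) genes. The protein-coding Vmn1r genes encode vomeronasal pheromone receptors. A further 31 tRNA genes lay in a run of 39 genes between H4bc24 and H2ac12, so the cluster held 77 of the 105 tRNA genes listed on chromosome 13. The last 2 histone genes, H2bc1 and H2ac1, followed 8 other genes, Trim38 and 4 Slc17a genes among them. Whether they lie inside the window on mm9 was not determined.

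Promoters of these genes carry short sequence elements that differ by histone class. The 4 stretches below, the last 150 bases before the start of transcription on the strand of the gene, show 1 promoter each of an H1, an H2B, an H3 and an H4 gene. They are from RefSeq (GRCm38.p6), written 5′ to 3′. For each class the gene shown is the first in gene order that held both TATAAA and the element of its class. Capitals mark matches, on either strand, to TATAAA (the TATA box), CCAAT (the CCAAT box), AAACACA (the H1 box), ATTTGCAT (the octamer of H2B promoters) and GGTCCG (the core of an element of H4 promoters). No match overlaps another in these stretches.
H1f5 (Hist1h1b, H1, minus strand): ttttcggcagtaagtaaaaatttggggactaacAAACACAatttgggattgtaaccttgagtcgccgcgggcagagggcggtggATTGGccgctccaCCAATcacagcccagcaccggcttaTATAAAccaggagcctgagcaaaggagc
H2bc8 (Hist1h2bg, H2B, plus strand): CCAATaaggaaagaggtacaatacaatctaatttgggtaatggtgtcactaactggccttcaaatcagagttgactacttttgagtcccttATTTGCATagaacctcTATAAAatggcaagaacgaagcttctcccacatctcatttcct
H3c10 (Hist1h3h, H3, plus strand): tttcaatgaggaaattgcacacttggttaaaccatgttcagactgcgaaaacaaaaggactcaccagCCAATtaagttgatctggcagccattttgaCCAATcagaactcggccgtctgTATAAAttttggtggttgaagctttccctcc
H4c12 (Hist1h4k, H4, minus strand): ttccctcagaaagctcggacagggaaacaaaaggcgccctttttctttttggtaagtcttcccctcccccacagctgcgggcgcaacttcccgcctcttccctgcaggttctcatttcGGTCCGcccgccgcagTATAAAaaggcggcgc

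Within 250 bases before the start, 51 of the 55 cluster genes had a promoter sequence to search. CCAAT was found in 43 of the 51 (84.3%), against 33.8% of all 32851 promoters of the same length. It was in every H1, H2A, H2B and H3 promoter searched (6, 13, 14 and 7) and in 3 of 11 H4 promoters. TATAAA was found in 26 (51.0%), against 12.4% of all promoters. AAACACA was found in 5 of 6 H1, 2 of 13 H2A and 2 of 14 H2B promoters and in none of the 7 H3 or 11 H4 promoters, against 6.25% of all promoters. GGTCCG was found in 8 of 11 H4, 1 of 14 H2B and 1 of 7 H3 promoters and in no H1 or H2A promoter, against 6.72% of all promoters. ATTTGCAT was found in 5 of 14 H2B and 5 of 13 H2A promoters, against 1.60% of all promoters. Of these 5 H2A promoters, 3 overlapped such an H2B promoter on the other strand, and H2A and H2B genes are known to lie in divergent pairs. A match describes these letters and is no evidence that a factor binds them.

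Peaks filled both ends of the window and left its middle empty. The longest stretch without a peak of any list ran from 22144160 to 23361293 (1217 kb). The next longest stretch between peaks of the window was 52.7 kb. On the whole of chromosome 13, with 4504 stretches between peaks, the empty middle was the 3rd longest, and the longest was 2442 kb. It divides the window into a first part from 21801388 to 22144159 (343 kb) and a second part from 23361294 to 23884800 (524 kb). Of 21 bins of 100 kb in the window, 9 held H3K4me3 peaks of control tumours and 12 were empty. The last piece of the window, shorter than 100 kb, was in none of these bins, although it held peaks. Elsewhere on the chromosome 62.8% of such bins held one.

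**Figure D1:**
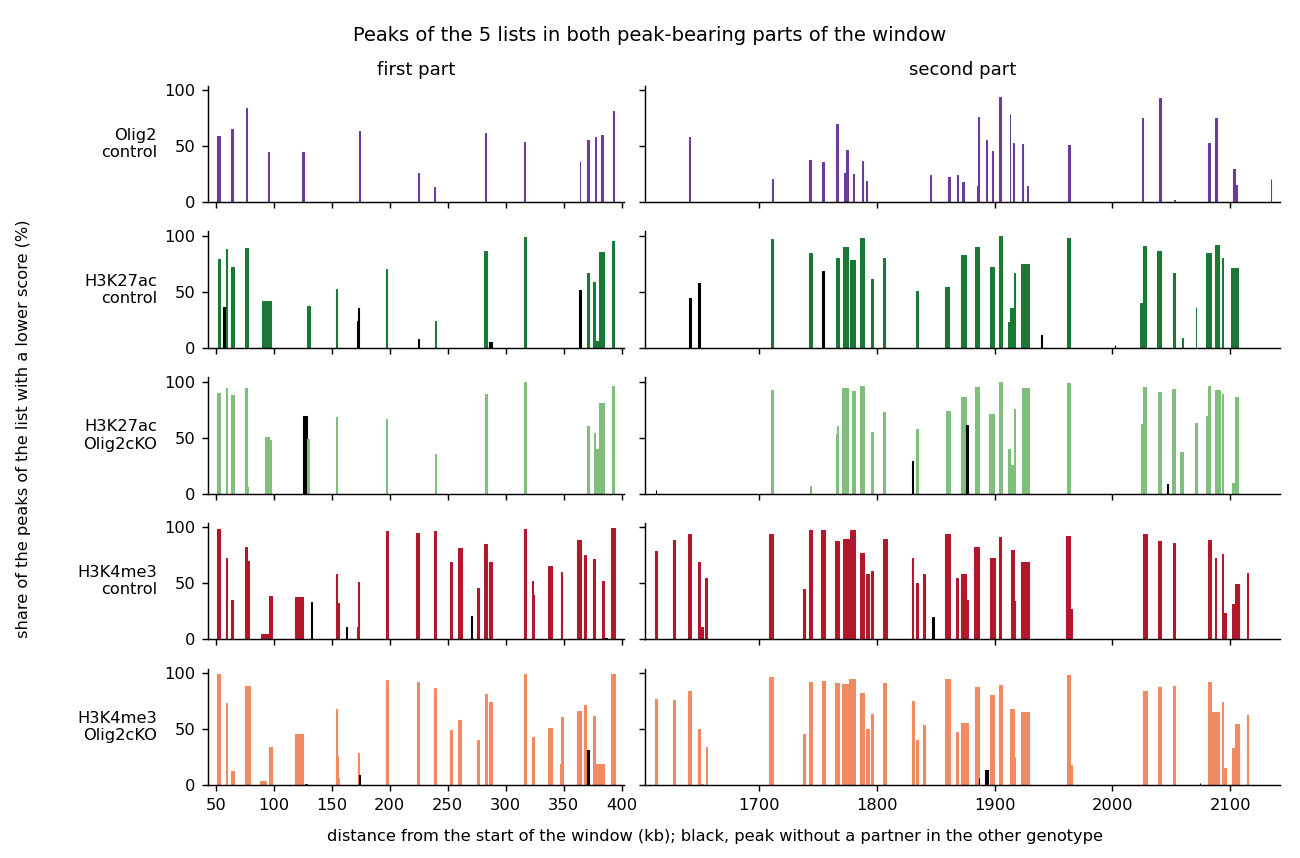
Each bar is 1 peak, placed by its distance in kb from the start of the window and as wide as the peak, and its height is the share of the peaks of its own list that scored lower (%). Rows are the 5 lists, columns are the first and the second part, the empty middle is left out, and black bars are peaks without a partner in the other genotype. The H3K4me3 rows hold the most bars, and black bars are few and mostly short.

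H3K4me3 was the densest mark of the window. The control list held 80 peaks there and the Olig2cKO list 79, which is 37.2 and 36.7 peaks per Mb, against 17.2 and 19.5 on the rest of the chromosome. The density was thus 2.17 and 1.89 times that of the rest. H3K27ac was listed with 56 control and 55 Olig2cKO peaks, 1.18 and 0.931 times the density of the rest, and Olig2 with 48 peaks, 1.48 times. The H3K27ac ratios lay near 1 and changed side with the setting: in the upper 50% of the list by score the Olig2cKO ratio was 1.40, and with the window 100 kb shorter at each end the control ratio was 0.997. Set beside the 52 other tiles of the same length on chromosome 13, 1 tile held more control H3K4me3 peaks than the window and 3 held more Olig2cKO H3K4me3 peaks. For control and Olig2cKO H3K27ac, 22 and 26 tiles held more, so acetylation was near the middle of the tiles in number. The tiles describe how peak number varies along 1 chromosome in 1 library each and are no test.

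**Figure D2:**
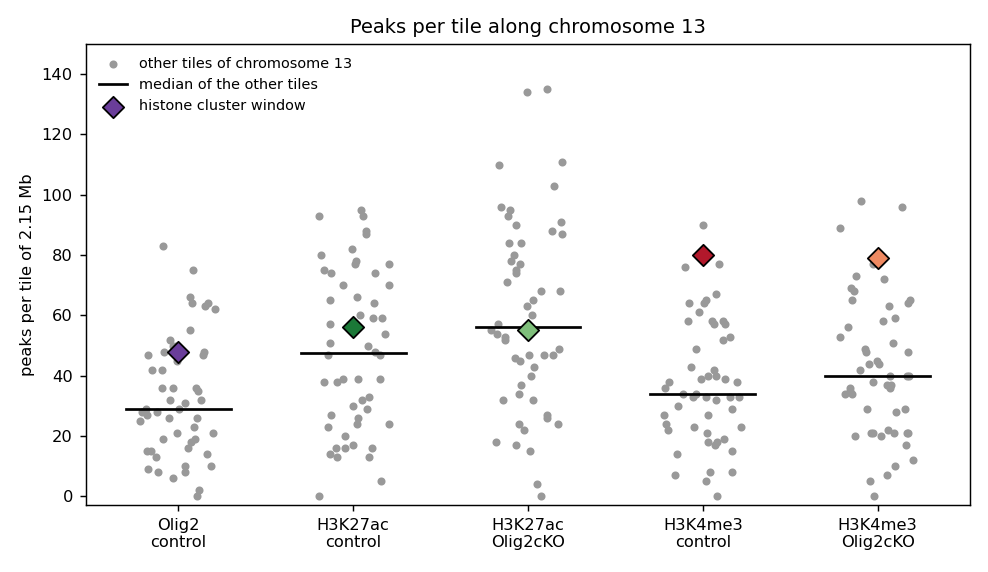
Points are tiles of 2.15 Mb along chromosome 13, and the vertical axis is the number of peaks per tile in each of the 5 lists. Diamonds are the histone cluster window and black lines the median of the 52 other tiles. The window stands at 80 and 79 peaks for H3K4me3, where the other tiles have medians of 34 and 40, and close to the median for Olig2cKO H3K27ac.

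Inside its parts the window was denser than these averages show, since the empty middle takes 1217 kb. The parts were cut at their outermost peaks, whereas the rest of the chromosome keeps its empty stretches, the longest of them 2442 kb. Densities by part are therefore not like for like with those of the rest, unlike the densities over the whole window given above. Control H3K4me3 peaks numbered 36 in the first part and 44 in the second, or 10.5 and 8.40 per 100 kb, against 1.72 on the rest of the chromosome. Olig2cKO H3K4me3 peaks numbered 34 and 45, or 9.92 and 8.60 per 100 kb against 1.95. The fullest bin of 100 kb held 12 H3K4me3 peaks in each genotype, a number that 1 bin elsewhere on the chromosome reached in either list. Of the 16 bins of the chromosome with 8 or more control H3K4me3 peaks, 5 lay in the window. Control H3K27ac peaks numbered 22 and 34 by part, or 6.42 and 6.49 per 100 kb, against 2.20 on the rest.

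Neighbouring H3K4me3 peaks stood close together. The median distance between the middles of neighbouring peaks was 7.67 kb in control tumours (quartiles 5.20 and 12.8 kb) and 7.28 kb in Olig2cKO tumours (4.54 and 13.8 kb). On the rest of the chromosome it was 25.1 kb (9.20 and 59.4) and 23.9 kb (9.91 and 52.4). For control H3K27ac it was 10.8 kb against 19.1 kb, for Olig2cKO H3K27ac 8.42 kb against 16.3 kb, and for Olig2 11.6 kb against 30.2 kb. All 5 lists were therefore spaced more closely here than on the rest, including Olig2cKO H3K27ac, whose density over the whole window was 0.931 times that of the rest.

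The histone peaks were also wide, and they were high in their own lists, more so in the second part than in the first. The score is the one that the authors' peak caller gave, without scaling from library to library, and it serves here only to rank peaks inside a list. The median control H3K4me3 peak of the window was 1796 bp wide, against 1082 bp on the rest of the chromosome, and its score was higher than that of 69.0% of the list. Of the 80 control peaks, 32 (40.0%, exact 95% binomial interval 29.2 to 51.6) scored 1000 or more, against 456 of 1972 (23.1%, 21.3 to 25.0) on the rest. Of the 79 Olig2cKO peaks, 26 (32.9%, 22.7 to 44.4) did, against 20.5% (18.8 to 22.2). All such intervals describe counting error alone, and they treat neighbouring peaks as if they were independent. The median width of H3K27ac peaks in the window was 1974 bp (control) and 2012 bp (Olig2cKO), against 1461 and 1395 bp. H3K4me3 peaks covered 8.33% of the window in control and 8.78% in Olig2cKO tumours, against 2.33% and 2.87% of the rest, and H3K27ac peaks 6.25% and 5.55%, against 3.82% and 4.65%. Of these, 69.6% (55.9 to 81.2) and 76.4% (63.0 to 86.8) stood in the upper 50% of their list.

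The highest H3K4me3 peaks lay at both ends of the first part, at a site inside it, and inside the second part. In control tumours they lay from 22141016 to 22144159 (score 3114), from 21801525 to 21803991 and from 22065793 to 22067546 (3100 each), from 23526960 to 23531257 (2893.19) and from 23503031 to 23505684 (2841.02). The score 3100 occurs 467 times in that list and 293 times in the Olig2cKO list, so peaks at that value are not ranked among themselves. In Olig2cKO tumours the highest lay from 21801399 to 21804092 and from 22065604 to 22067394 (3100 each), from 22141201 to 22144154 (2969.4), from 23711397 to 23714353 (2754.03) and from 23458733 to 23462076 (2449.12). The first 3 of these overlapped the 3 highest control peaks. The first H3K4me3 peak of the first part and its last one, which borders the empty middle, were thus among the highest of both lists.

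The highest acetylation lay at 1 site in the second part in both genotypes. The control H3K27ac peak from 23653552 to 23656476 scored 2057.51, above 99.8% of its list, and the Olig2cKO peak from 23654143 to 23656316 scored 2615.42. The highest Olig2 peak of the window, from 23653807 to 23655691 (303.9, above 93.6% of the Olig2 list), lay on the same site, with H3K4me3 in both genotypes. The next control H3K27ac peaks lay from 22065585 to 22067506 (1498.1), from 23535359 to 23538916 (1391.48), from 23711111 to 23714357 (1332.73) and from 23459900 to 23462014 (1202.17). In Olig2cKO tumours the next lay from 22065612 to 22067311 (1800.68), from 23711508 to 23714162 (1511.91), from 23535349 to 23539327 (990.88) and from 22141351 to 22143823 (984.95). All 10 of these H3K27ac peaks carried H3K4me3 in both genotypes and an Olig2 peak.

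Acetylation without H3K4me3 was rare in the window. Of 56 control H3K27ac peaks, 46 (82.1%, 69.6 to 91.1) overlapped control H3K4me3, which is called promoter-type here, against 1238 of 2530 (48.9%, 47.0 to 50.9) on the rest of the chromosome. Of 55 Olig2cKO peaks, 48 (87.3%, 75.5 to 94.7) were promoter-type, against 48.7% (46.9 to 50.4). The window thus had 10 distal control and 7 distal Olig2cKO H3K27ac peaks, those without H3K4me3 of the same genotype. Counted as H3K4me3 peaks per H3K27ac peak, the ratio was 1.43 in control and 1.44 in Olig2cKO tumours, against 0.779 and 0.708 on the rest. In each genotype 2 of the 51 other tiles with H3K27ac peaks had a higher ratio.

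The peaks of the 4 histone lists joined into 89 regions in the window, 39 in the first part and 50 in the second, and into 4212 on the rest of the chromosome. Both marks in both genotypes were listed at 38 regions (42.7%, 32.3 to 53.6), against 25.0% (23.7 to 26.3) on the rest. H3K27ac without any H3K4me3 was listed at 9 regions (10.1%, 4.73 to 18.3), against 44.1% (42.6 to 45.6). H3K4me3 without any H3K27ac was listed at 30 (33.7%, 24.0 to 44.5), against 17.1% (16.0 to 18.3). Regions with H3K27ac alone weigh on the first and the last of these shares through their denominator. Without them, both marks in both genotypes were listed at 38 of 80 regions, against 1052 of 2354 on the rest, which are similar shares. Among regions with any H3K4me3, 30 of 80 (37.5%, 26.9 to 49.0) lacked H3K27ac, and the interval holds the 30.7% of the rest. In the same way, 50 of 80 control H3K4me3 peaks (62.5%, 51.0 to 73.1) overlapped control H3K27ac, against 65.1% on the rest, and 44 of 79 Olig2cKO peaks (55.7%, 44.1 to 66.9) against 66.1%. Among peaks that scored 1000 or more, 28 of 32 control peaks (87.5%) and 23 of 26 Olig2cKO peaks (88.5%) were acetylated, against 90.1% and 91.5%.

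**Figure D3:**
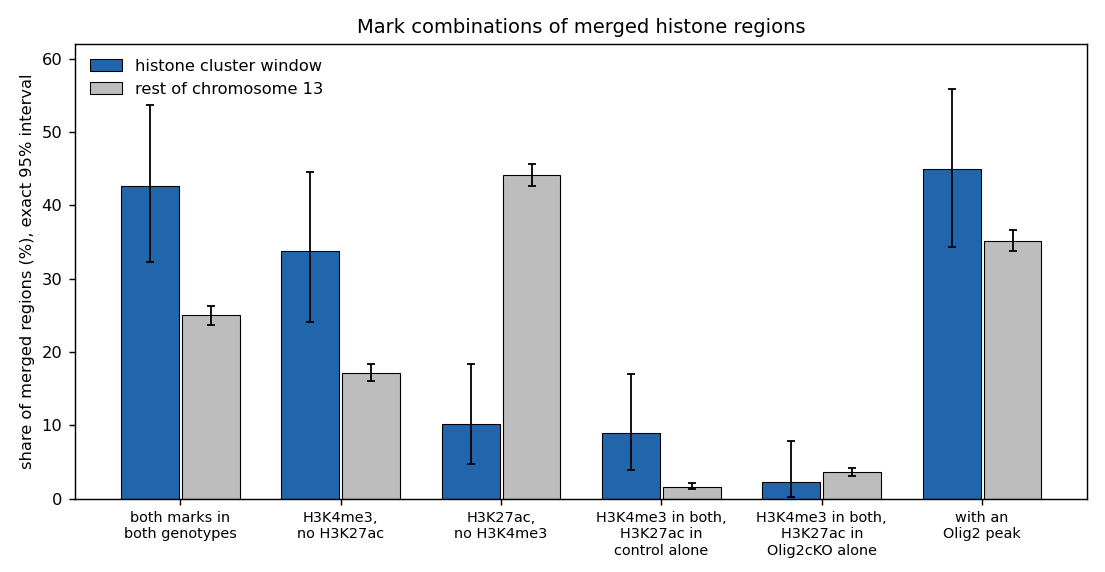
Bars give the share of merged histone regions (%) with each combination of marks, for the 89 regions of the window and the 4212 regions on the rest of chromosome 13, and lines are exact 95% binomial intervals. The bars for H3K27ac without H3K4me3 stand at 10.1% in the window and 44.1% on the rest.

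The 38 regions with all 4 peaks were wide, with a median of 3566 bp, against 2424 bp for the 1052 such regions on the rest of the chromosome. They made up 25 of the 50 regions of the second part (50.0%, 35.5 to 64.5) and 13 of the 39 of the first (33.3%, 19.1 to 50.2). The widest region of the window ran from 21838067 to 21848788 (10722 bp). Its peaks were broad and low: the widest of them, the control H3K27ac peak of 7801 bp, scored 141.57. The next widest ran from 22127323 to 22134544 (7222 bp), from 23672388 to 23679604 (7217 bp), from 21868029 to 21875100 (7072 bp) and from 23851092 to 23857593 (6502 bp). The region from 21868029 to 21875100 held H3K4me3 in both genotypes and no H3K27ac, and the other 4 held all 4 peaks.

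Regions with H3K4me3 in both genotypes and no H3K27ac numbered 22, with 12 in the first part and 10 in the second. They lay partly in runs. In the first part, 5 consecutive regions from 22072546 to 22099135 (26.6 kb) and 4 from 22002358 to 22026831 (24.5 kb) held no H3K27ac of either genotype, and 1 of the latter was listed in control tumours alone. Some of these peaks were high. The peak from 23376650 to 23379069 scored 1811.82 in control tumours, above 88.9% of the list, and its Olig2cKO partner scored 950.28. The control peak from 22008923 to 22012279 scored 1314.66, above 81.4% of the list, and its Olig2cKO partner scored 453.25. Of the 22, 3 carried an Olig2 peak (13.6%, 2.91 to 34.9), against 29 of the 38 regions with all 4 peaks (76.3%, 59.8 to 88.6). On the rest of the chromosome these shares were 23.3% (19.3 to 27.6) and 75.0% (72.3 to 77.6).

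Genotype sharing was compared to see which peaks of this cluster were listed in 1 genotype alone. A peak is called genotype-only when no peak of the other genotype overlapped it by 1 bp. A missing partner does not show that the mark itself is absent. Control-only H3K4me3 peaks numbered 5 of 80 (6.25%, 2.06 to 14.0). The background over the whole list was 8.13%, and the rest of the chromosome had 8.22%. Olig2cKO-only H3K4me3 peaks numbered 6 of 79 (7.59%, 2.84 to 15.8), where the background was 21.4% and the rest of the chromosome had 23.4%. The control-only share was thus near its background, and the Olig2cKO-only share was below it. By part, control-only peaks were 4 of 36 in the first and 1 of 44 in the second, and Olig2cKO-only peaks 3 of 34 and 3 of 45. Of the 52 other tiles, 51 held H3K4me3 peaks, and 48 of these had a higher Olig2cKO-only share. In the upper 50% of each list by score, 0 of 56 control and 0 of 48 Olig2cKO peaks lacked a partner in the whole other list, which allows shares of up to 5.36% and 6.25% (3 counts of the total). On the rest of the chromosome these shares were 0.536% and 2.16%. When both lists were reduced to their upper 50%, 8 of 56 control peaks (14.3%, 6.38 to 26.2) were control-only, where the background over the reduced list was 5.63% and the rest of the chromosome had 5.14% (3.82 to 6.76). In that setting the control-only share was thus above its background. Of the 48 Olig2cKO peaks, 1 was Olig2cKO-only there (2.08%, 0.0527 to 11.1), where the background was 18.2% and the rest had 20.6%, so that share stayed below its background.

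All genotype-only H3K4me3 peaks of the window had low scores. The 5 control-only peaks lay from 21882263 to 21883420 (score 177.93), from 22019832 to 22020688 (111.48), from 23597220 to 23598613 (104.42), from 21912578 to 21913064 (75.43) and from 22134732 to 22137486 (52.43). None of them carried H3K27ac or Olig2. The 5 highest Olig2cKO-only peaks lay from 22120220 to 22122038 (161.45), from 23642185 to 23644776 (83.87), from 21923890 to 21924172 (68.06), from 23636634 to 23637029 (61.29) and from 23824248 to 23824680 (53.58). The remaining one, from 21877409 to 21878849, scored 50.86. The highest Olig2cKO-only peak lay on H3K27ac of both genotypes and on Olig2. Those that start at 23642185 and 21923890 also lay on Olig2. The one that starts at 23636634 lay on control H3K27ac, and the one that starts at 21877409 on Olig2cKO H3K27ac. Even the highest of the genotype-only peaks, at 177.93, stood above only 33.1% of its list.

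For H3K27ac, the control-only share was near its background and the Olig2cKO-only share was below it. Control-only H3K27ac peaks numbered 11 of 56 (19.6%, 10.2 to 32.4), where the background over the whole list was 17.9% and the rest of the chromosome also had 17.9%. Olig2cKO-only peaks numbered 5 of 55 (9.09%, 3.02 to 20.0), where the background was 30.9% and the rest of the chromosome had 32.8% (31.2 to 34.5). By part, control-only peaks were 6 of 22 in the first and 5 of 34 in the second, and Olig2cKO-only peaks 1 of 19 and 4 of 36. Of 51 other tiles with H3K27ac peaks, 50 had a higher Olig2cKO-only share and 23 a higher control-only share. The Olig2cKO list is the longer one elsewhere, with 1.25 peaks per control peak on the rest of the chromosome, while in the window the number was 0.982.

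Most H3K27ac of the window is promoter-type, so the shares were also taken over promoter-type peaks alone. Control-only peaks were 8 of 46 (17.4%, 7.82 to 31.4), against 8.56% (7.06 to 10.3) on the rest of the chromosome, and Olig2cKO-only peaks were 4 of 48 (8.33%, 2.32 to 20.0), against 17.5% (15.7 to 19.5). Both window intervals overlap those of the rest. Over promoter-type peaks the low Olig2cKO-only share was therefore not distinguishable from that of the rest at these counts. In the upper 50% of the own list, 3 of 39 control (7.69%, 1.62 to 20.9) and 2 of 42 Olig2cKO peaks (4.76%, 0.582 to 16.2) lacked a partner in the whole other list, against 5.31% and 10.5%. When both lists were reduced to their upper 50%, 4 of 39 control peaks (10.3%, 2.87 to 24.2) were control-only, where the background was 19.4%. The Olig2cKO-only share was then 5 of 42 (11.9%, 3.98 to 25.6), where the background was 32.8% and the rest of the chromosome had 33.6% (31.3 to 36.0). No library was replicated, so none of these differences between genotypes has a replicate check.

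**Figure D4:**
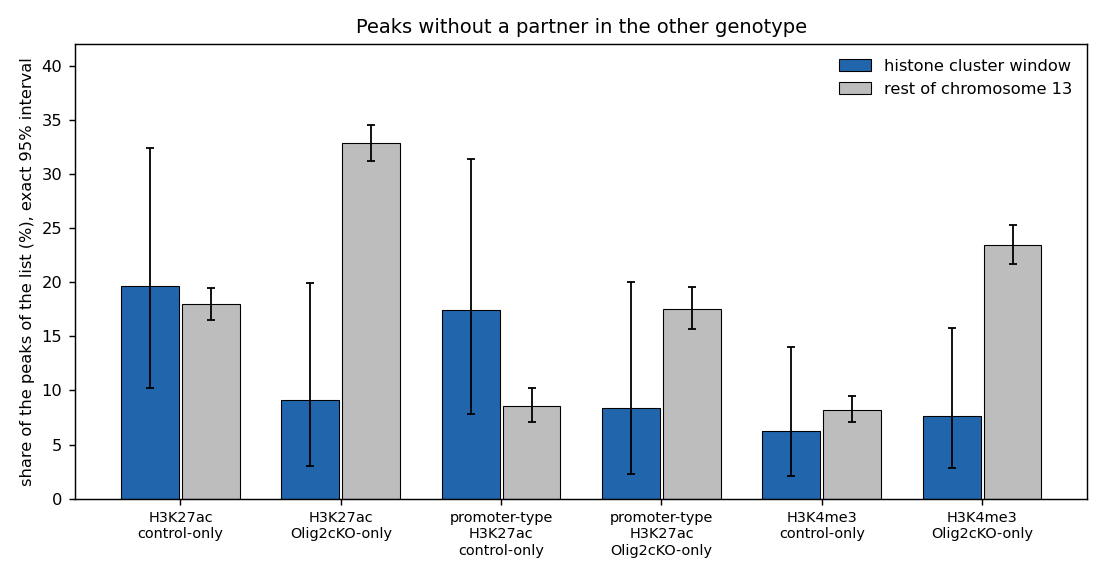
Bars give the share of peaks (%) without a partner in the other genotype, for H3K27ac, for promoter-type H3K27ac and for H3K4me3, in the window and on the rest of chromosome 13, with exact 95% binomial intervals as lines. The Olig2cKO-only bars stand at 9.09% and 7.59% in the window and at 32.8% and 23.4% on the rest.

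At 8 of the 11 control-only H3K27ac peaks, H3K4me3 was listed in both genotypes (72.7%, 39.0 to 94.0), against 82 of 454 (18.1%, 14.6 to 21.9) on the rest of the chromosome. Counted over regions, H3K4me3 in both genotypes with H3K27ac in control tumours alone was listed at 8 of 89 (8.99%, 3.96 to 16.9), against 1.64% (1.28 to 2.07). The reverse, with H3K27ac in Olig2cKO tumours alone, was listed at 2 (2.25%, 0.273 to 7.88), against 3.61%. Regions with H3K27ac and no H3K4me3, 10.1% in the window and 44.1% on the rest, weigh on both of these shares through their denominator. The 5 highest control-only H3K27ac peaks lay from 23503740 to 23505055 (score 315.13), from 23398580 to 23399759 (219.43), from 22113085 to 22114875 (185.45), from 23390939 to 23392146 (154.01) and from 21806466 to 21808396 (122.81). The first 4 carried H3K4me3 in both genotypes, and 3 of those 4 carried Olig2. The site of the highest had H3K4me3 scores of 2841.02 in control and 2044.03 in Olig2cKO tumours, above 97.5% and 93.0% of their lists. Its H3K27ac score stood above 68.9% of its list. Over the 8 regions, control H3K27ac scores ran from 56.72 to 315.13, and 4 of the 8 regions carried Olig2.

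The 5 Olig2cKO-only H3K27ac peaks lay from 21875142 to 21878826 (284.76), from 23626017 to 23627386 (229.34), from 23580203 to 23581072 (99.92), from 23796013 to 23797455 (60.26) and from 23362362 to 23362790 (53.61). The control list held a H3K27ac peak just after the first of them, from 21878964 to 21881534. It held another just before the one at 23626017, from 23621328 to 23625884. With peaks up to 1 kb apart counted as overlapping, 3 of 55 peaks were Olig2cKO-only (5.45%) and 10 of 56 control-only (17.9%). At 3 of the 5 (60.0%, 14.7 to 94.7) both genotypes had a H3K4me3 peak, against 169 of 1035 (16.3%, 14.1 to 18.7) on the rest of the chromosome. The share with H3K4me3 was therefore above that of the rest for peaks of either genotype alone, in a window where most H3K27ac peaks overlap H3K4me3, although the interval for 5 peaks overlaps that of the rest. The highest of them carried Olig2 and H3K4me3 of Olig2cKO tumours, and stood above 69.2% of its list.

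H3K4me3 peaks with exactly 1 partner were about as wide in both genotypes. Over 71 such pairs in the window the median control width was 1947 bp, the median Olig2cKO width was 2103 bp, and Olig2cKO minus control gave a median of 15 bp. Of these pairs, 38 (53.5%, 41.3 to 65.5) were wider in Olig2cKO tumours, against 1197 of 1595 (75.0%, 72.8 to 77.2) on the rest of the chromosome, where the median difference was 141 bp. Window peaks are wider than others, so pairs were also split by control width. At 2 kb or more, 15 of 33 window pairs (45.5%, 28.1 to 63.6) were wider in Olig2cKO tumours, against 70.2% (64.6 to 75.5) of 289 pairs on the rest. From 1 to 2 kb, 14 of 27 (51.9%, 31.9 to 71.3) were, against 70.2% (66.5 to 73.7), and these intervals overlap. Below 1 kb the shares were 81.8% of 11 pairs and 82.1% of 652. For H3K27ac, 16 of 40 pairs (40.0%, 24.9 to 56.7) were wider in Olig2cKO tumours, against 56.5% (54.3 to 58.7), and the intervals overlap. By control width, 11 of 22 H3K27ac pairs at 2 kb or more (50.0%, against 46.2%) and 3 of 5 below 1 kb were wider in Olig2cKO tumours. From 1 to 2 kb, 2 of 13 were (15.4%, 1.92 to 45.4), against 55.4% (52.2 to 58.7), and these intervals do not overlap. By rank inside its own list, the Olig2cKO peak stood higher than its control partner in 29 of 71 H3K4me3 pairs (40.8%, 29.3 to 53.2). On the rest of the chromosome the share was 67.6% (65.2 to 69.9). The median shift, Olig2cKO minus control, was -2.75 and 3.02 percentage points. For H3K27ac, 29 of 40 pairs (72.5%, 56.1 to 85.4) ranked higher in Olig2cKO tumours, against 64.7% (62.6 to 66.8), and these intervals overlap. Rank depends on the whole list, and the Olig2cKO lists were longer: 69365 against 56600 H3K27ac peaks, and 48885 against 44676 H3K4me3 peaks. A pair can therefore rank higher in Olig2cKO tumours without a higher score. H3K4me3 pairs that scored 3100 in both lists were counted as higher. The part of list length in these shares was not tested. The number of reads behind each library is unknown, and its part in peak width and rank was not tested.

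**Figure D5:**
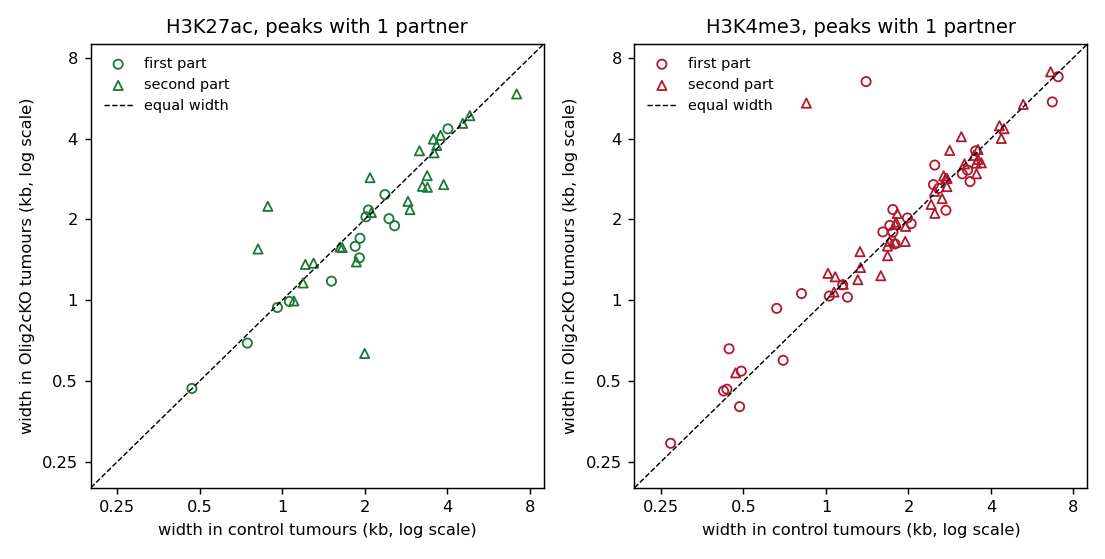
Each point is a pair of overlapping peaks with 1 partner each, with its width in control tumours on the horizontal and in Olig2cKO tumours on the vertical axis (kb, log scales), for 40 H3K27ac and 71 H3K4me3 pairs of the window. Circles are the first part, triangles the second, and the dashed line marks equal width. Points lie on both sides of the line for both marks, with 38 of 71 H3K4me3 pairs above it.

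Olig2 peaks of control tumours were frequent in the window and of ordinary height. They numbered 15 in the first part and 33 in the second, and 11 of the 52 other tiles held more. Their median score was 88, against 92.0 on the rest of the chromosome, and their median width 1102 bp, against 839 bp. The 5 highest were the peak from 23653807 to 23655691 given above, and those from 23789896 to 23790951 (302.1), from 21825910 to 21827074 (200.29), from 22142241 to 22143400 (180.06) and from 23662763 to 23663481 (169.77). All 5 overlapped H3K27ac in both genotypes.

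Nearly all Olig2 peaks of the window lay on histone peaks. Control H3K27ac was listed at 41 of 48 (85.4%, 72.2 to 93.9), against 69.9% (67.7 to 72.1) on the rest of the chromosome, and control H3K4me3 at 40 (83.3%, 69.8 to 92.5), against 56.4% (54.0 to 58.7). Both were listed at 37 (77.1%, 62.7 to 88.0), against 48.5% (46.1 to 50.9). H3K27ac alone was listed at 4 (8.33%, 2.32 to 20.0), against 21.4%, and H3K4me3 alone at 3 (6.25%, 1.31 to 17.2), against 7.88%. In Olig2cKO tumours H3K27ac was listed at 36 of the 48 sites (75.0%, 60.4 to 86.4), against 71.2% on the rest, which lies inside the interval. H3K4me3 was listed at 45 (93.8%, 82.8 to 98.7), against 59.5% (57.1 to 61.8). Only 2 Olig2 peaks overlapped no histone peak of any list, from 23595536 to 23596267 (64.92) and from 23884440 to 23884800 (61.8), both in the second part (4.17%, 0.509 to 14.3, against 16.3% on the rest). Seen from the other side, Olig2 lay in 40 of the 89 merged regions (44.9%, 34.4 to 55.9), against 35.2% (33.7 to 36.6), and these intervals overlap. Among regions with all 4 histone peaks the share was close to that of the rest, as given above.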

How the data were processed

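CASAVA, Bowtie2 and MACS are named for mm9, per the submitters' processing notes, without versions or settings. The use of an input library, and the treatment of reads that match several of these near-identical histone genes, are not given in the sources used here. A deposited list is the set of peaks of 1 library with the authors' score for every peak, 50 or more throughout. The lists give no read counts, so the depth is unknown. Starts were raised by 1, so that positions count from 1.

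Overlaps of at least 1 bp were counted in Python 3.11.15 (pandas 2.3.3, numpy 2.4.6), and counts were identical to those of bedtools 2.31.1 for 20 pairs of lists. On simulated partners, 70.0% were given and 70.0% recovered. Each simulated partner lay inside its own peak, and all others were put under another chromosome name. This checks only that the counting runs correctly, and it cannot show how partial overlaps are treated. Overlapping or touching histone peaks were joined into regions. Whole tiles of the window's length were laid out in both directions from the window, between the first and the last peak of chromosome 13. The shorter pieces left at both ends of the chromosome were in no tile. Intervals are exact (Clopper-Pearson, 95%, scipy 1.17.1). With 1 library per group no test was made and p-values are not given. Figures used matplotlib 3.10.9.

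The regions named are the 5 highest peaks of each list, the 5 highest genotype-only peaks of each mark and direction, the 5 widest merged regions, the longest empty stretch and Olig2 peaks on no histone peak. The 2 peaks with H3K4me3 and no H3K27ac and the runs of such regions were chosen after their values were seen. The window, the lists and the comparisons were chosen with earlier results of these data known. Regulators of histone genes and histone genes of other chromosomes were not analysed here, since no annotation of mm9 was used. The full genotype that both groups share is not reported here.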

Additional observations from a re-analysis of the deposited data

How the results depend on the processing

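Over 24 results, 86 values were recomputed under other settings, and 77 stayed within the 95% interval of the reported share or within 1.5 times the reported ratio or spacing. An overlap of 50% of the shorter peak, lists cut to equal length, a window 100 kb shorter at each end, and peaks within 1 kb merged inside each list left all values they were run on within these limits. With peaks up to 1 kb apart counted as overlapping, the Olig2cKO-only share of H3K4me3 fell to 2.53%, the promoter-type share of control H3K27ac rose to 92.9%, and 93.8% of Olig2 peaks lay on control H3K4me3. With regions up to 1 kb apart joined, 54.4% held both marks in both genotypes. With the upper 50% of each list by score, the control-only share of H3K4me3 was 14.3% and the Olig2cKO-only share 2.08%, which turns their order. The order for H3K27ac turned too, to 10.3% control-only and 11.9% Olig2cKO-only. There, 69.6% of Olig2 peaks lay on control H3K4me3, 30.2% of regions held Olig2, and the median spacing of Olig2cKO H3K4me3 was 12.3 kb. Within the limits, the H3K27ac density ratio passed 1 in Olig2cKO tumours (1.40, upper 50%) and reached 0.997 in control tumours (shorter window). The cause was not tested. The acetylated share of H3K4me3, the regions with H3K27ac and no H3K4me3, those with H3K4me3 in both genotypes and H3K27ac in control alone, the shares over promoter-type peaks, and all alternatives of these were added after the data were seen. No paired analysis was possible because each group has 1 library. Depth is unknown and 1 library per group leaves every difference without a replicate check.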

Other observations

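Peaks with nearly the same edges in all 4 histone lists occurred at 2 sites of the window. Of its 56 control H3K27ac peaks, 2 (3.57%, 0.435 to 12.3) were matched in all of the other 3 lists by a peak whose start and end differed by at most 50 bp, against 2 of 2530 (0.0791%, 0.00957 to 0.285) on the rest of chromosome 13. They lay from 21903956 to 21904423 (468 bp, score 189.13) and from 23666592 to 23667782 (1191 bp, score 296.33). The count was made after the data were seen.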
